A study of Homo sapiens with 9 samples.

Results

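Tumors grown from adapted TBP3743 cells were compared with tumors grown from the original TBP3743 cells in one and the same host strain, the B6129SF1 mouse, a first-generation hybrid with a C57BL/6 parent. The 3 adapted/B6129SF1 tumors and the 3 original/B6129SF1 tumors were 6 of the 9 tumors sequenced, and the other 3 (adapted/B6) came from adapted cells in C57BL/6 mice. TBP3743 is a murine anaplastic thyroid cancer line that carries the Braf V600E mutation and a deletion of Trp53, both directed to the thyroid, so every group shares these lesions. Adapted cells were recovered after repeated subcutaneous passage in C57BL/6 mice, and those used here came from round 3. Hosts were female mice aged 6 weeks that received 100000 cells into the left thyroid, and tumors were taken 14 days later. Original and adapted cells each stand for a single cell population, so the tumors repeat the implantation and not the adaptation, and the p-values measure the spread between tumors. The labels give the organism of these samples as Homo sapiens, although the reads were mapped to the mm10 mouse build. Bulk RNA was measured as FPKM (fragments per kilobase of transcript, scaled to the mapped fragments of each library), in which fewer cells of a type and less RNA per cell cannot be told apart.

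Anaplastic thyroid cancer is an undifferentiated carcinoma in which the hormone-making program of the thyroid follicular cell is largely lost and mesenchymal genes are strongly expressed. A tumor growing in an immunocompetent mouse is a mixture of carcinoma cells with macrophages, lymphocytes, endothelium and fibroblasts. Interferon-gamma, made mainly by T cells and NK cells, induces the genes of antigen presentation and the guanylate-binding proteins in many of these cell types. Original and adapted cells therefore can differ in the genes of the carcinoma cells themselves, in those of the cells they grow among, or in both.

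Vim and Nkx2-1 were expressed in every tumor of both groups. Vim, the gene of the intermediate filament vimentin, measured 4625, 6058 and 5489 FPKM in the original/B6129SF1 tumors and 2664, 3350.4 and 2611 FPKM in the adapted/B6129SF1 tumors. Nkx2-1, a thyroid and lung transcription factor, measured 28.6, 41.7 and 28.9 FPKM in the original/B6129SF1 tumors and 44.5, 36.2 and 23.5 FPKM in the adapted/B6129SF1 tumors. Tshr, the thyrotropin receptor gene, and Slc5a5, the iodide transporter gene, were below 0.1 FPKM in all 6 tumors, and Tg, the thyroglobulin gene, was uneven within both groups, with 0.0153, 30.2 and 12.2 FPKM in the original/B6129SF1 tumors and 0.0431, 0.0382 and 1.20 FPKM in the adapted/B6129SF1 tumors (adjusted p = 0.286). Pax8, another thyroid transcription factor gene, measured 0.748, 1.61 and 0.592 FPKM in original/B6129SF1 and 0.136, 0.108 and 0.0174 FPKM in adapted/B6129SF1. Every adapted/B6129SF1 value of Pax8 was thus below every original/B6129SF1 value, but its level was too low for it to be tested. Of the 4 tested genes of the thyroid list 0 were called, with a median log2 fold change of -0.83. The list of skeletal muscle genes held 0.0713, 0.0309 and 0.056% of all FPKM in the original/B6129SF1 tumors and 0.213, 0.0333 and 8.57% in the adapted/B6129SF1 tumors. Adapted/B6129SF1 replicate 3 therefore stood apart in muscle RNA, with adapted/B6 replicate 1 (1.65%) next, and 0 of the 24 muscle genes tested were called. Within a group the lowest Pearson correlation across genes between a tumor and another was 0.973 to 0.977 for original/B6129SF1 and 0.913 to 0.93 for adapted/B6129SF1.

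Against original/B6129SF1, 240 of the 10035 genes tested were higher in adapted/B6129SF1 (2.39% of the genes tested) and 89 were lower (0.887%). A gene was called when its limma p was under 0.05 after Benjamini-Hochberg adjustment across the tested genes and its log2 fold change, taken on FPKM + 1, was above 1 in size, and every adjusted p below comes from this fit. On the 22 immune lists 68 of the 347 genes tested were higher (19.6%) and 5 were lower (1.44%). On none of these lists 172 of 9688 genes were higher (1.78%) and 84 were lower (0.867%). The 2 largest falls were those of Akr1c18 (-6.05) and Il1rl1 (-3.63), and the 2 largest rises those of Clec1a (2.82) and Cxcl9 (2.69). In all 329 called genes the 3 adapted/B6129SF1 tumors lay on one side of the 3 original/B6129SF1 tumors. Without such a call, 13.3% of the tested genes had every adapted/B6129SF1 tumor above every original/B6129SF1 tumor and 16.2% had them below, called genes included. The median log2 fold change over all genes tested was -0.0353. Leaving out each of the 9 tumors in turn kept the call of 104 higher and 42 lower genes in every fit, and a gene whose values are given below is among these unless its lost calls are given. The counts were most affected by original/B6129SF1 replicate 3, without which 123 genes were higher and 53 lower.

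**Figure D1:**
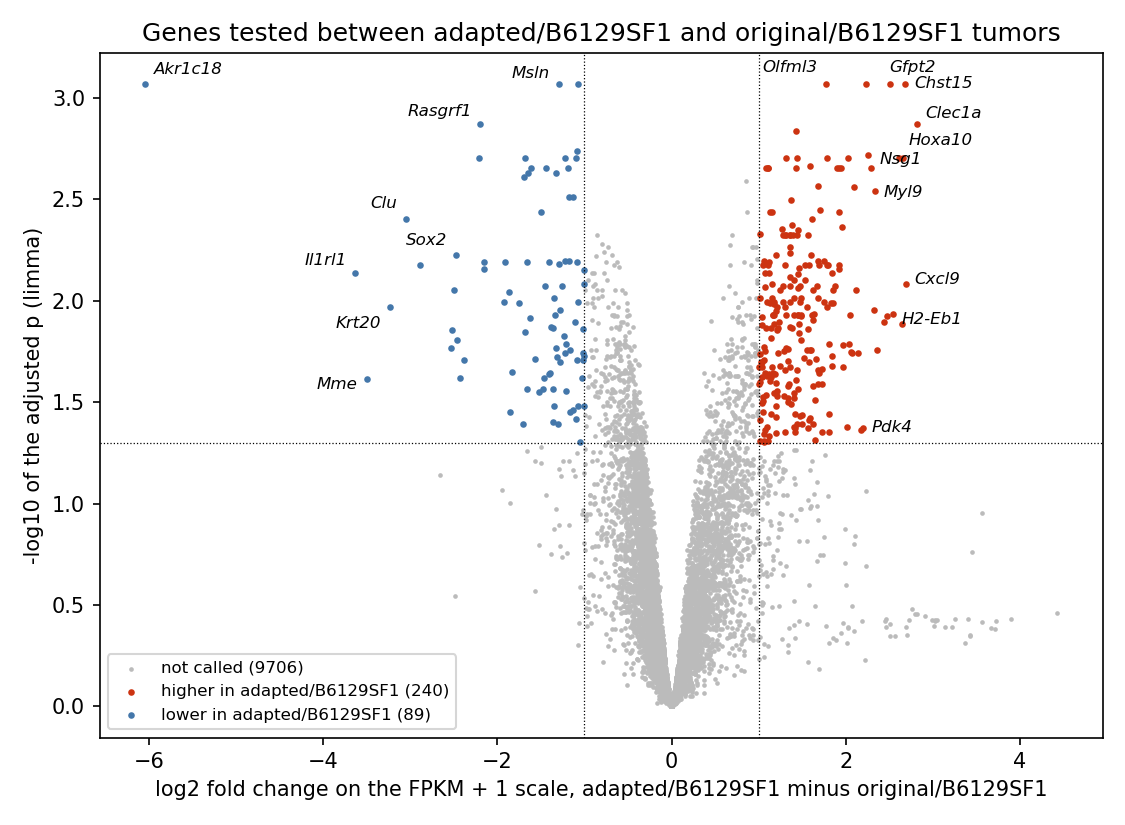
Each point is one of the 10035 genes tested, placed by its log2 fold change (adapted/B6129SF1 minus original/B6129SF1, FPKM + 1) and by the negative log10 of its adjusted p from limma. The 240 higher genes are red, the 89 lower genes blue, and dotted lines mark the thresholds. Akr1c18 lies farthest to the left at -6.05, and the gray points far to the right at low significance include the skeletal muscle genes.

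The steepest fall was that of Akr1c18, the gene of an aldo-keto reductase that inactivates progesterone. It measured 208, 233 and 317 FPKM in the original/B6129SF1 tumors and 4.38, 5.68 and 0.501 FPKM in the adapted/B6129SF1 tumors (log2 fold change -6.05, SE 0.48, adjusted p = 0.000856). Its group mean was 71.7 times as high in original/B6129SF1 as in adapted/B6129SF1, and the tumors of the groups were far apart. Without adapted/B6129SF1 replicate 3 its log2 fold change was -5.38. Akr1b8, another aldo-keto reductase gene, measured 164, 192 and 193 FPKM in original/B6129SF1 and 101, 91.0 and 67.0 FPKM in adapted/B6129SF1 (log2 fold change -1.09, SE 0.15, adjusted p = 0.00646). These were the only 2 genes called among the 18 tested members of the list of aldo-keto reductases and steroid enzymes, whose median was -0.07. The call was lost for Akr1b8 without adapted/B6129SF1 replicate 3 (-0.92), the log2 fold change without that tumor being in parentheses here and in all such cases below.

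Il1rl1, which encodes the receptor ST2 for the alarmin cytokine IL-33, measured 113, 28.6 and 136 FPKM in the original/B6129SF1 tumors and 5.16, 4.12 and 6.75 FPKM in the adapted/B6129SF1 tumors (log2 fold change -3.63, SE 0.54, adjusted p = 0.0073). Its ligand gene moved the other way. Il33 measured 2.29, 2.08 and 2.62 FPKM in the original/B6129SF1 tumors and 7.79, 6.89 and 10.7 FPKM in the adapted/B6129SF1 tumors (log2 fold change 1.49, SE 0.25, adjusted p = 0.0117). Receptor and ligand were thus called in opposite directions, and for neither did the groups overlap. Without original/B6129SF1 replicate 2 the log2 fold change of Il1rl1 was -4.32. Of the 41 tested genes of interleukins and cytokine receptors, 3 were higher (Il33, Il18bp and Il12rb1) and 1 lower (Il1rl1), with a median of 0.18.

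A set of genes for secreted and membrane signals was lower in adapted/B6129SF1. Clu, encoding the extracellular chaperone clusterin, measured 159, 195 and 144 FPKM in the original/B6129SF1 tumors and 17.1, 12.4 and 32.2 FPKM in the adapted/B6129SF1 tumors (log2 fold change -3.05, SE 0.37, adjusted p = 0.00394). Pthlh, the gene of parathyroid hormone-related protein, measured 25.2, 8.26 and 35.9 FPKM in original/B6129SF1 and 1.84, 4.01 and 2.28 FPKM in adapted/B6129SF1 (log2 fold change -2.53, SE 0.45, adjusted p = 0.014). Stc2, encoding the secreted glycoprotein stanniocalcin 2, measured 14.7, 7.33 and 17.3 FPKM in original/B6129SF1 and 1.86, 2.83 and 1.47 FPKM in adapted/B6129SF1 (log2 fold change -2.15, SE 0.30, adjusted p = 0.00646). In each of these 3 genes the lowest original/B6129SF1 tumor stood above the highest adapted/B6129SF1 tumor, although for Pthlh and Stc2 original/B6129SF1 replicate 2 was well below the other original/B6129SF1 tumors. Gas1, a membrane-anchored coreceptor for Hedgehog ligands, showed the reverse order within original/B6129SF1, with 42.9, 121 and 43.6 FPKM in original/B6129SF1 and 10.9, 7.32 and 12.4 FPKM in adapted/B6129SF1 (log2 fold change -2.49, SE 0.39, adjusted p = 0.00886). Mme, the gene of the cell-surface peptidase neprilysin, had the same uneven pattern, with 10.7, 118 and 12.6 FPKM in original/B6129SF1 and 1.41, 1.34 and 1.30 FPKM in adapted/B6129SF1 (log2 fold change -3.50, SE 0.74, adjusted p = 0.0243). That is, original/B6129SF1 replicate 2 alone held most of the Mme signal, and the other original/B6129SF1 tumors were still above every adapted/B6129SF1 tumor. Ace, encoding angiotensin-converting enzyme, another surface peptidase, rose, with 7.54, 10.2 and 23.1 FPKM in original/B6129SF1 and 65.6, 58.8 and 40.4 FPKM in adapted/B6129SF1 (log2 fold change 2.05, SE 0.35, adjusted p = 0.0117). Ace thus stood above original/B6129SF1 in all 3 adapted/B6129SF1 tumors. With one tumor left out, calls were lost for Pthlh without original/B6129SF1 replicate 1 (-2.36) and for Mme without adapted/B6129SF1 replicates 1, 2 or 3 (-3.52 to -3.49). Without original/B6129SF1 replicate 2 the log2 fold change of Mme was -2.43, and without original/B6129SF1 replicate 1 it was -4.10.

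Regulators of Ras and G protein signalling were among the lower genes as well. Rgs16, which speeds the shut-off of G protein subunits, measured 27.8, 12.9 and 55.6 FPKM in the original/B6129SF1 tumors and 2.39, 3.01 and 3.10 FPKM in the adapted/B6129SF1 tumors (log2 fold change -2.89, SE 0.41, adjusted p = 0.00666). Rasgrf1, an exchange factor that activates Ras, measured 9.25, 6.98 and 8.78 FPKM in the original/B6129SF1 tumors and 1.39, 0.971 and 0.763 FPKM in the adapted/B6129SF1 tumors (log2 fold change -2.20, SE 0.19, adjusted p = 0.00135). All adapted/B6129SF1 values of both genes were below the lowest original/B6129SF1 value by a wide margin. By contrast Rgs2, a relative of Rgs16 that was picked after its values were seen, was higher, at 3.87, 4.38 and 4.79 FPKM in original/B6129SF1 and 9.72, 11.2 and 10.6 FPKM in adapted/B6129SF1 (log2 fold change 1.11, adjusted p = 0.00222). The list of ERK pathway output and feedback genes, which report the activity of the kinase cascade below BRAF, had 25 tested members, of which 0 were higher and 1, Hbegf, was lower. Hbegf, the gene of a ligand of the EGF receptor, measured 39.5, 22.7 and 50.4 FPKM in original/B6129SF1 and 17.5, 15.5 and 16.5 FPKM in adapted/B6129SF1 (log2 fold change -1.07, SE 0.25, adjusted p = 0.033). The median of the list was -0.30, and Dusp6, a phosphatase that dampens ERK, measured 90.4, 57.9 and 108 FPKM in original/B6129SF1 and 122, 92.2 and 87.8 FPKM in adapted/B6129SF1 (adjusted p = 0.486). The Hbegf groups did not overlap, but its call was lost for Hbegf without original/B6129SF1 replicates 1 or 3, adapted/B6129SF1 replicates 1, 2 or 3 or adapted/B6 replicates 1 or 3 (-1.11 to -0.83).

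**Figure D2:**
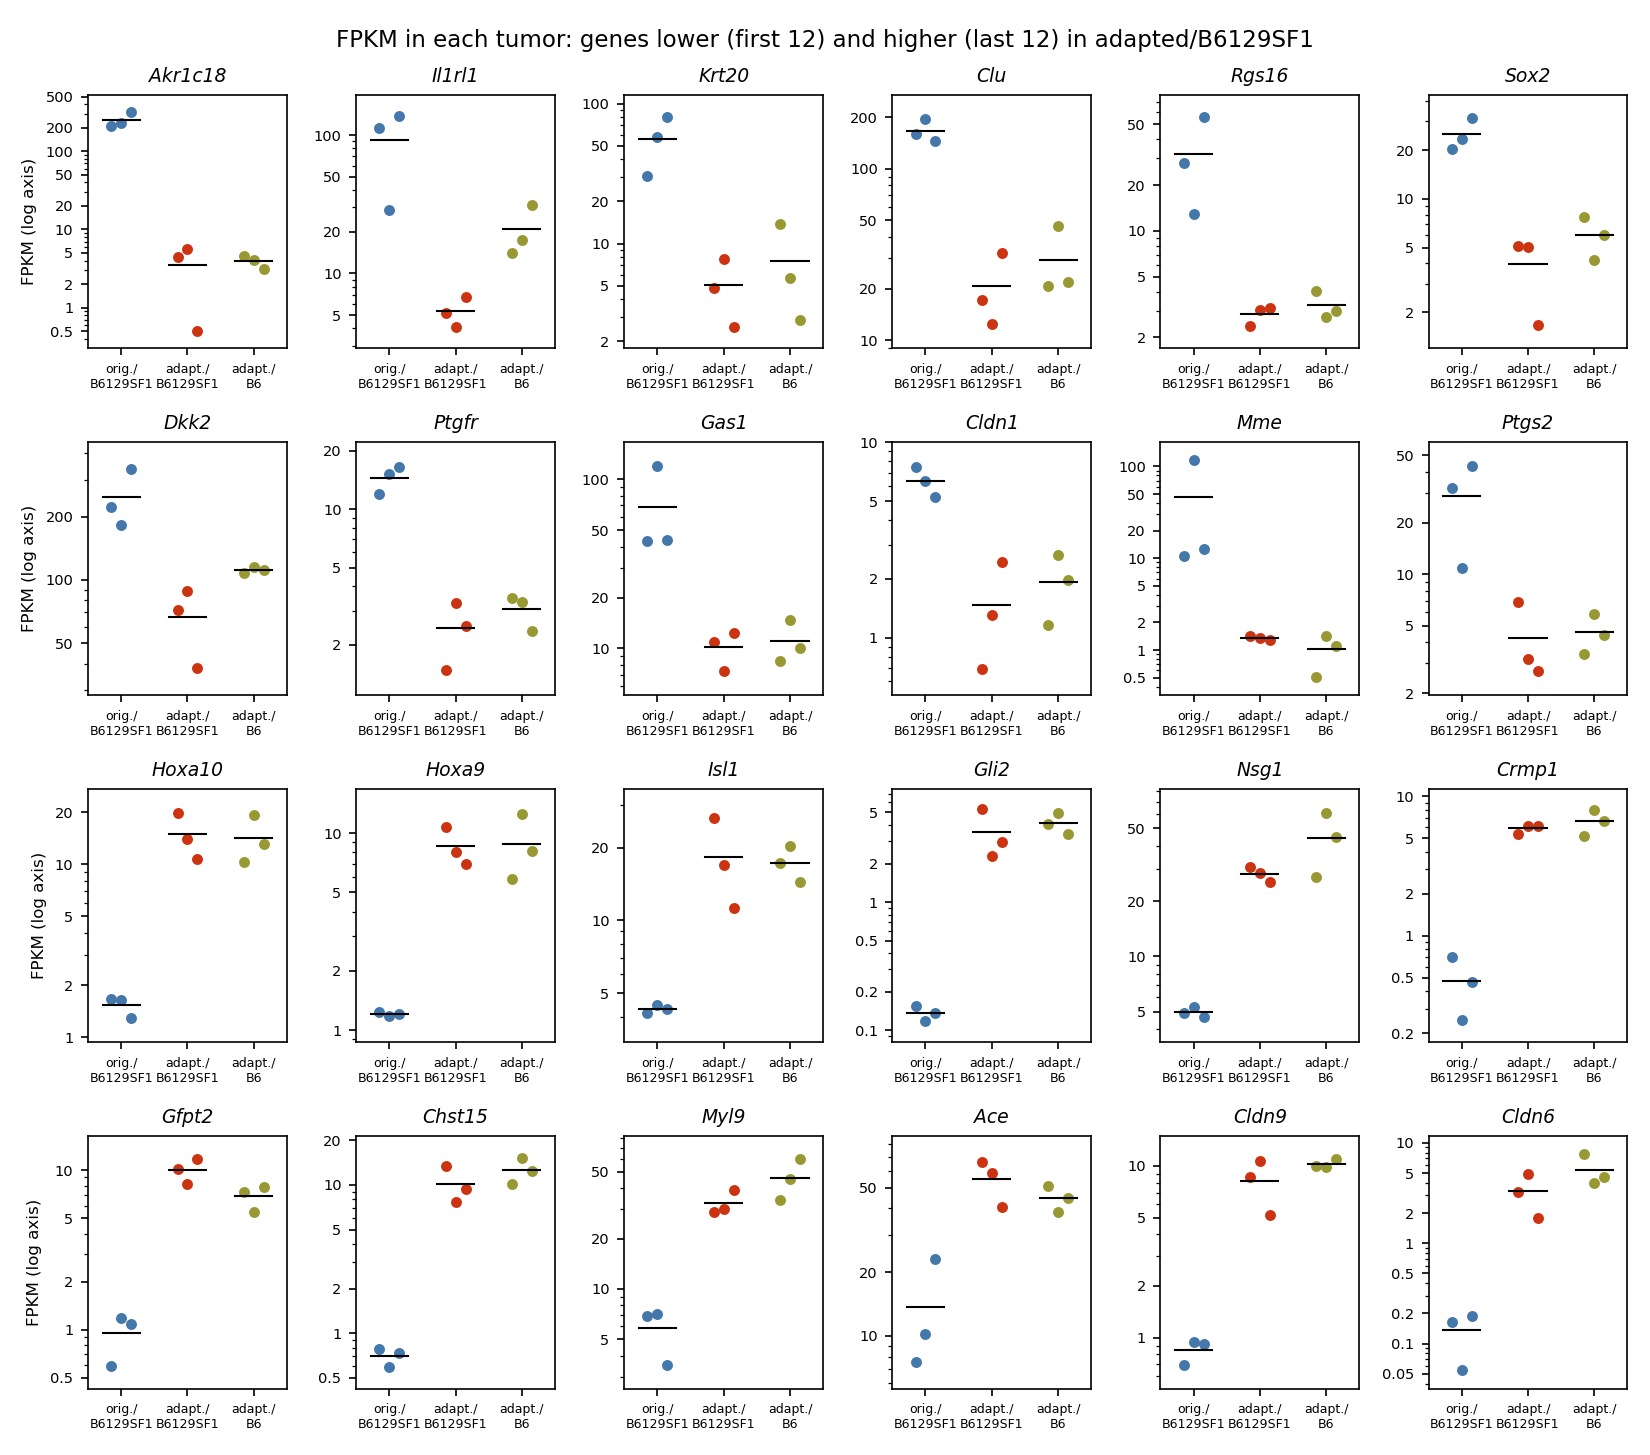
FPKM on a log axis in each of the 9 tumors for 12 lower and 12 higher genes; a point is a tumor and the bar is the group mean. In each panel the 3 adapted/B6129SF1 points lie wholly below (first 12) or above (last 12) the 3 original/B6129SF1 points, and the adapted/B6 points are shown beside them.

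Prostaglandin genes fell at the enzyme and at one receptor. Ptgs2, which encodes the inducible cyclooxygenase COX-2, measured 32.1, 10.9 and 43.3 FPKM in the original/B6129SF1 tumors and 6.89, 3.17 and 2.70 FPKM in the adapted/B6129SF1 tumors (log2 fold change -2.39, SE 0.47, adjusted p = 0.0196). Ptgfr, the receptor gene for prostaglandin F2-alpha, measured 12.01, 15.2 and 16.5 FPKM in the original/B6129SF1 tumors and 1.49, 3.29 and 2.51 FPKM in the adapted/B6129SF1 tumors (log2 fold change -2.21, SE 0.22, adjusted p = 0.00197). Neither gene overlapped between the groups. Ptgis, whose product makes prostacyclin, was the 1 member called higher, from a low level, with 0.138, 0.183 and 0.314 FPKM in original/B6129SF1 and 3.65, 1.67 and 7.51 FPKM in adapted/B6129SF1 (log2 fold change 1.97, SE 0.37, adjusted p = 0.0166). The constitutive enzyme gene Ptgs1 measured 67.8, 63.9 and 77.0 FPKM in original/B6129SF1 and 68.4, 61.6 and 48.2 FPKM in adapted/B6129SF1 (adjusted p = 0.301) and was not called, and the other 15 of the 19 tested members were not called. Of the 3 called members Ptgfr kept its call whichever tumor was left out, and calls were lost for Ptgis without original/B6129SF1 replicates 1 or 3 (1.92 and 2.03) and for Ptgs2 without original/B6129SF1 replicates 1 or 3 or adapted/B6129SF1 replicates 2 or 3 (-2.26 to -2.0).

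Among keratin and junction genes of epithelial cells, Krt20, Krt8 and Cldn1 were lower and Cldn6 and Cldn9 higher. Krt20 measured 30.5, 57.3 and 80.8 FPKM in the original/B6129SF1 tumors and 4.83, 7.78 and 2.55 FPKM in the adapted/B6129SF1 tumors (log2 fold change -3.23, SE 0.54, adjusted p = 0.0108). Krt8, the main keratin of simple epithelia and the most abundant keratin here, measured 553, 363 and 615 FPKM in the original/B6129SF1 tumors and 180.2, 283 and 153 FPKM in the adapted/B6129SF1 tumors (log2 fold change -1.32, SE 0.25, adjusted p = 0.0172). Its partner Krt18 measured 389.7, 207 and 349 FPKM in original/B6129SF1 and 139, 256 and 110.2 FPKM in adapted/B6129SF1 (log2 fold change -0.94, adjusted p = 0.112) and was not called, and neither were the other 3 of the 6 keratins of the list that were tested. Cldn1, a barrier-forming tight junction claudin, measured 7.45, 6.37 and 5.28 FPKM in the original/B6129SF1 tumors and 0.688, 1.30 and 2.44 FPKM in the adapted/B6129SF1 tumors (log2 fold change -1.62, SE 0.28, adjusted p = 0.0122). In contrast, Cldn6 measured 0.165, 0.0546 and 0.187 FPKM in original/B6129SF1 and 3.25, 4.88 and 1.77 FPKM in adapted/B6129SF1 (log2 fold change 1.86, SE 0.29, adjusted p = 0.00886). Cldn9, a gene close in sequence to Cldn6, measured 0.693, 0.947 and 0.915 FPKM in original/B6129SF1 and 8.58, 10.7 and 5.15 FPKM in adapted/B6129SF1 (log2 fold change 2.26, SE 0.21, adjusted p = 0.00191). Both Cldn6 and Cldn9 were below 1 FPKM in every original/B6129SF1 tumor and above it in every adapted/B6129SF1 tumor. Cdh1, the E-cadherin gene, was low in both groups and was not called, at 2.22, 1.82 and 4.01 FPKM in original/B6129SF1 and 1.47, 2.11 and 1.03 FPKM in adapted/B6129SF1 (adjusted p = 0.232). Calls were lost for Krt8 without original/B6129SF1 replicates 1 or 3 (-1.25 and -1.17).

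Gja1 and Msln, both for cell-surface proteins and picked after their values were seen, were abundant and lower in adapted/B6129SF1. Gja1, the gene of the gap junction protein connexin 43, measured 162, 116 and 204 FPKM in the original/B6129SF1 tumors and 67.2, 60.1 and 49.5 FPKM in the adapted/B6129SF1 tumors (log2 fold change -1.41, SE 0.20, adjusted p = 0.00644). Msln, encoding mesothelin, measured 109.6, 132 and 119 FPKM in the original/B6129SF1 tumors and 50.9, 51.0 and 43.3 FPKM in the adapted/B6129SF1 tumors (log2 fold change -1.30, SE 0.10, adjusted p = 0.000856). Every adapted/B6129SF1 value of both genes was well below the lowest original/B6129SF1 value, and the spread was smallest for Msln. On the list of mesenchymal and EMT genes 1 of 20 was higher (Acta2, with its values given further on) and 1 lower (Twist2), with a median of 0.10. Vim passed the adjusted p but not the fold threshold (log2 fold change -0.91, 95% confidence interval -1.31 to -0.50, adjusted p = 0.0189), and the N-cadherin gene Cdh2 measured 58.5, 52.7 and 52.9 FPKM in original/B6129SF1 and 63.4, 63.6 and 39.9 FPKM in adapted/B6129SF1 (adjusted p = 0.986).

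A set of transcription factors, most of them known from embryonic development, changed in both directions. This set of 24 called genes was put together after their values were seen, and 15 of them were higher and 9 lower. Among HOX genes, which set position along the body axis, Hoxa10 measured 1.65, 1.63 and 1.29 FPKM in the original/B6129SF1 tumors and 19.9, 14.1 and 10.8 FPKM in the adapted/B6129SF1 tumors (log2 fold change 2.62, SE 0.25, adjusted p = 0.00197). Its neighbor Hoxa9 measured 1.23, 1.18 and 1.21 FPKM in the original/B6129SF1 tumors and 10.8, 7.98 and 6.94 FPKM in the adapted/B6129SF1 tumors (log2 fold change 2.10, SE 0.24, adjusted p = 0.00275). Hoxb9, the paralog of Hoxa9 in another cluster, was lower, with 12.1, 9.22 and 15.1 FPKM in the original/B6129SF1 tumors and 5.37, 3.97 and 3.94 FPKM in the adapted/B6129SF1 tumors (log2 fold change -1.26, SE 0.19, adjusted p = 0.00845). Hoxa9 differed by less than 0.1 FPKM among the original/B6129SF1 tumors and was several times higher in each adapted/B6129SF1 tumor. The other 14 of the 17 HOX genes tested were not called, and the median of the list was 0.26.

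Factors of mesoderm and endoderm were represented in this set, among the higher genes, by Isl1, Gata4, Gata6, Tbx2, Shox2 and Meis3. Isl1, a LIM homeobox factor of heart, motor neuron and islet development, measured 4.14, 4.47 and 4.32 FPKM in the original/B6129SF1 tumors and 26.6, 16.9 and 11.3 FPKM in the adapted/B6129SF1 tumors (log2 fold change 1.78, SE 0.26, adjusted p = 0.00668). Gata4, which acts in heart and endoderm, measured 2.75, 2.43 and 2.07 FPKM in original/B6129SF1 and 9.49, 8.18 and 6.26 FPKM in adapted/B6129SF1 (log2 fold change 1.38, SE 0.25, adjusted p = 0.0136). Gata6, its close relative, measured 5.19, 5.67 and 5.67 FPKM in original/B6129SF1 and 20.2, 14.1 and 9.58 FPKM in adapted/B6129SF1 (log2 fold change 1.21, SE 0.28, adjusted p = 0.033). In these 3 genes adapted/B6129SF1 replicate 1 was the highest tumor. Meis3, a HOX cofactor gene, measured 1.30, 1.37 and 0.872 FPKM in original/B6129SF1 and 5.29, 4.72 and 3.30 FPKM in adapted/B6129SF1 (log2 fold change 1.31, SE 0.19, adjusted p = 0.00666). Tbx2, a T-box repressor, measured 0.527, 1.40 and 0.819 FPKM in original/B6129SF1 and 17.8, 5.26 and 2.76 FPKM in adapted/B6129SF1 (log2 fold change 2.02, SE 0.50, adjusted p = 0.0417), and so ranged widely within adapted/B6129SF1. Shox2 measured 5.66, 4.05 and 6.55 FPKM in original/B6129SF1 and 22.8, 15.1 and 9.81 FPKM in adapted/B6129SF1 (log2 fold change 1.34, SE 0.29, adjusted p = 0.0262). The call did not hold for Gata4 without original/B6129SF1 replicate 3 (1.31), for Gata6 without original/B6129SF1 replicates 1, 2 or 3 or adapted/B6129SF1 replicates 1 or 2 (0.96 to 1.22), for Shox2 without original/B6129SF1 replicates 1, 2 or 3 or adapted/B6129SF1 replicates 1 or 2 (1.06 to 1.47) and for Tbx2 without original/B6129SF1 replicates 1, 2 or 3, adapted/B6129SF1 replicate 2, adapted/B6 replicates 1 or 2 or 3 (1.87 to 2.19), and Tbx2 was at 1.37 without adapted/B6129SF1 replicate 1.

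Gli2, a transcriptional effector of Hedgehog signalling, was close to 0 in original/B6129SF1, with 0.155, 0.118 and 0.137 FPKM in the original/B6129SF1 tumors and 5.27, 2.28 and 2.93 FPKM in the adapted/B6129SF1 tumors (log2 fold change 1.93, SE 0.23, adjusted p = 0.00366). No other gene of the 20 tested on the list of NOTCH and Hedgehog genes was called. Tcf7l1, a repressor of WNT target genes, measured 3.04, 5.82 and 1.999 FPKM in original/B6129SF1 and 11.5, 13.9 and 11.96 FPKM in adapted/B6129SF1 (log2 fold change 1.62, SE 0.25, adjusted p = 0.00886). Lower factors included Sox2, a factor of pluripotent and foregut progenitor cells, with 20.3, 23.6 and 31.5 FPKM in the original/B6129SF1 tumors and 5.15, 5.04 and 1.66 FPKM in the adapted/B6129SF1 tumors (log2 fold change -2.47, SE 0.34, adjusted p = 0.00596). Foxf2, a forkhead factor of mesenchyme, measured 3.61, 2.44 and 3.89 FPKM in original/B6129SF1 and 0.256, 0.145 and 0.578 FPKM in adapted/B6129SF1 (log2 fold change -1.70, SE 0.19, adjusted p = 0.00245). The Iroquois genes Irx3 (-1.45) and Irx5 (-1.13) were lower together, as were Twist2 (-1.28), Nr4a2 (-1.22) and Nfatc4 (-1.34), all on the log2 scale. The groups did not overlap for Gli2, Tcf7l1, Sox2 or Foxf2.

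**Figure D3:**
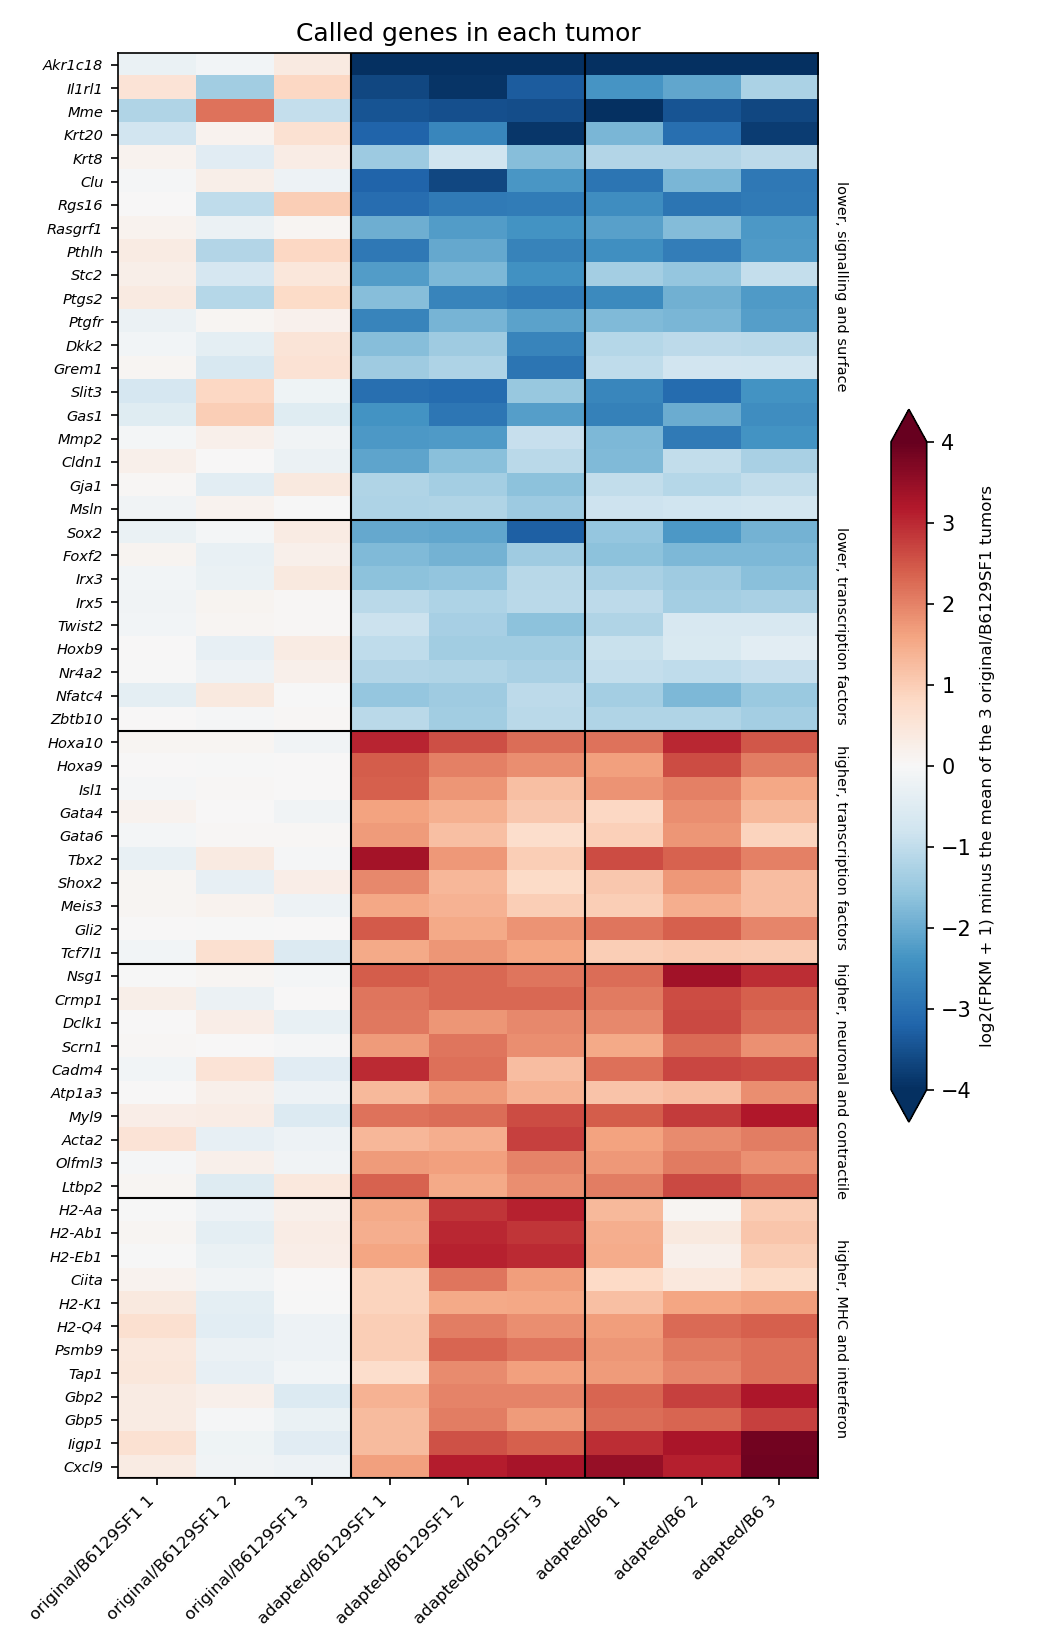
Rows are called genes in 5 blocks named at the right, columns are the 9 tumors, and the color gives log2(FPKM + 1) minus the mean of the 3 original/B6129SF1 tumors (blue lower, red higher, saturated beyond 4). Lower genes are blue and higher genes red in all adapted/B6129SF1 columns, and the MHC class II genes H2-Aa, H2-Ab1 and H2-Eb1 are paler in adapted/B6129SF1 replicate 1 and in the adapted/B6 columns.

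The WNT pathway, which steers cell fate through beta-catenin and, in other branches, cell polarity, had 33 genes tested, of which 2 were higher and 2 lower, with a median of -0.13. Dkk2, a secreted modulator that binds the WNT coreceptor, was among the most abundant of the lower genes, with 222, 182 and 339 FPKM in the original/B6129SF1 tumors and 72.3, 88.8 and 37.9 FPKM in the adapted/B6129SF1 tumors (log2 fold change -1.92, SE 0.31, adjusted p = 0.0101). Ror1, a receptor for WNT5A, measured 1.68, 1.69 and 1.82 FPKM in original/B6129SF1 and 0.0709, 0.0942 and 0.833 FPKM in adapted/B6129SF1 (log2 fold change -1.08, SE 0.21, adjusted p = 0.0196). Wnt10b, a ligand, was higher, with 6.70, 12.7 and 6.46 FPKM in original/B6129SF1 and 44.2, 24.2 and 17.2 FPKM in adapted/B6129SF1 (log2 fold change 1.57, SE 0.39, adjusted p = 0.0426). Tcf7l1, named above, was the other. Daam1, a formin downstream of WNT polarity signals that is on none of the lists, had the smallest p of all the lower genes, with 14.5, 13.9 and 14.8 FPKM in the original/B6129SF1 tumors and 6.29, 6.27 and 6.32 FPKM in the adapted/B6129SF1 tumors (log2 fold change -1.08, SE 0.09, adjusted p = 0.000856). Its 3 adapted/B6129SF1 tumors differed by less than 0.1 FPKM. With one tumor fewer, the call was lost for Wnt10b without original/B6129SF1 replicates 1 or 3, adapted/B6129SF1 replicates 1 or 2 or adapted/B6 replicate 3 (1.21 to 1.63) and for Ror1 without original/B6129SF1 replicates 1 or 3 or adapted/B6129SF1 replicates 1 or 2 (-1.09 to -0.95).

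Among the 37 tested genes of the TGF-beta family, 1 was higher and 1 lower, with a median of 0.10. Ltbp2, a latent TGF-beta binding protein of elastic fibers, measured 10.5, 6.70 and 13.7 FPKM in the original/B6129SF1 tumors and 55.5, 30.4 and 38.7 FPKM in the adapted/B6129SF1 tumors (log2 fold change 1.92, SE 0.28, adjusted p = 0.00701). Grem1, the secreted BMP antagonist gremlin, measured 102, 61.7 and 145 FPKM in the original/B6129SF1 tumors and 35.5, 40.7 and 11.9 FPKM in the adapted/B6129SF1 tumors (log2 fold change -1.86, SE 0.44, adjusted p = 0.0353). Adapted/B6129SF1 replicate 3 had the lowest Grem1 value. Retinoic acid genes were called lower or were not called. Rdh10, which makes retinaldehyde, measured 30.9, 36.9 and 24.6 FPKM in original/B6129SF1 and 12.2, 18.5 and 11.1 FPKM in adapted/B6129SF1 (log2 fold change -1.10, SE 0.19, adjusted p = 0.0127). Cyp26b1, which degrades retinoic acid, measured 1.30, 1.78 and 2.99 FPKM in original/B6129SF1 and 0.395, 0.0629 and 0.950 FPKM in adapted/B6129SF1 (log2 fold change -1.05, SE 0.28, adjusted p = 0.0499). Crabp1, a retinoic acid binding protein gene of very high level, measured 1852, 1851 and 1955 FPKM in original/B6129SF1 and 488, 1442 and 813 FPKM in adapted/B6129SF1 and was not called (log2 fold change -1.18, adjusted p = 0.0614). Of the 22 genes tested on the list of retinoic acid and nuclear receptor genes, 3 were lower and 0 higher. The 3 were Rdh10, Cyp26b1 and the nuclear receptor gene Nr4a2. With a tumor left out, calls ended for Rdh10 without original/B6129SF1 replicate 2 or adapted/B6129SF1 replicate 3 (-0.97 and -0.97), for Grem1 without original/B6129SF1 replicates 1 or 3, adapted/B6 replicates 1 or 2 or 3 (-1.86 to -1.57) and for Cyp26b1 without original/B6129SF1 replicates 1, 2 or 3, adapted/B6129SF1 replicates 1 or 2, adapted/B6 replicates 1 or 2 or 3 (-1.23 to -0.83).

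Axon guidance genes, which carry positional cues between many kinds of cells, held 5 higher and 2 lower genes of 39 tested, with a median of -0.15. The ligand Slit3 measured 14.2, 42.1 and 20.4 FPKM in the original/B6129SF1 tumors and 1.98, 1.88 and 7.46 FPKM in the adapted/B6129SF1 tumors (log2 fold change -2.53, SE 0.48, adjusted p = 0.0172). Ntn4, a netrin of basement membranes, measured 7.61, 10.4 and 10.5 FPKM in original/B6129SF1 and 3.83, 4.13 and 4.59 FPKM in adapted/B6129SF1 (log2 fold change -1.01, SE 0.20, adjusted p = 0.0188). The receptor tyrosine kinase Ephb2 was higher, with 1.68, 0.665 and 0.698 FPKM in the original/B6129SF1 tumors and 6.996, 6.18 and 6.53 FPKM in the adapted/B6129SF1 tumors (log2 fold change 1.95, SE 0.21, adjusted p = 0.00222). Unc5a, a netrin receptor, was under 0.1 FPKM in every original/B6129SF1 tumor and 1.87, 1.13 and 1.75 FPKM in adapted/B6129SF1 (log2 fold change 1.27, SE 0.16, adjusted p = 0.00443). The semaphorins Sema3b (1.40), Sema4a (1.37) and Sema4d (1.44) were also higher. The call was not kept for Slit3 without original/B6129SF1 replicate 3 or adapted/B6129SF1 replicate 2 (-2.62 and -2.26), for Ntn4 without original/B6129SF1 replicates 2 or 3 or adapted/B6129SF1 replicates 1 or 2 (-1.001 to -0.93) and for Sema4d without original/B6129SF1 replicates 2 or 3, adapted/B6129SF1 replicates 2 or 3, adapted/B6 replicates 1 or 2 or 3 (1.11 to 1.51).

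Several called genes are best known from neurons. This set was assembled from the called genes after their values were seen and held 16 higher and 3 lower genes, where 72.9% of all 329 called genes were higher. Nsg1, an endosomal trafficking protein of neurons, measured 4.89, 5.30 and 4.66 FPKM in the original/B6129SF1 tumors and 30.9, 28.4 and 25.4 FPKM in the adapted/B6129SF1 tumors (log2 fold change 2.29, SE 0.24, adjusted p = 0.00222). Crmp1, which relays semaphorin signals to the cytoskeleton, measured 0.703, 0.247 and 0.463 FPKM in the original/B6129SF1 tumors and 5.38, 6.12 and 6.14 FPKM in the adapted/B6129SF1 tumors (log2 fold change 2.24, SE 0.17, adjusted p = 0.000856). Dclk1, a doublecortin-like kinase, measured 3.86, 4.77 and 2.95 FPKM in the original/B6129SF1 tumors and 19.7, 15.2 and 17.2 FPKM in the adapted/B6129SF1 tumors (log2 fold change 1.93, SE 0.20, adjusted p = 0.00222). Each of the 3 genes was about even within a group and several times higher in adapted/B6129SF1. Scrn1 measured 0.0814, 0.0675 and 0.0257 FPKM in original/B6129SF1 and 2.44, 3.64 and 2.82 FPKM in adapted/B6129SF1 (log2 fold change 1.89, SE 0.20, adjusted p = 0.00222). The adhesion gene Cadm4 measured 5.36, 9.0001 and 3.98 FPKM in original/B6129SF1 and 53.5, 30.1 and 14.97 FPKM in adapted/B6129SF1 (log2 fold change 2.14, SE 0.41, adjusted p = 0.0182). Gap43, a growth cone protein, was lower, with 5.46, 2.90 and 5.45 FPKM in original/B6129SF1 and 0.0715, 0.739 and 0.621 FPKM in adapted/B6129SF1 (log2 fold change -1.92, SE 0.27, adjusted p = 0.00646). On the list of Schwann cell and nerve genes, 3 of 6 tested genes were called, all higher (Nefl, Nefm and S100b), while the share of all FPKM held by the list was 0.00617, 0.01001 and 0.00715% in the original/B6129SF1 tumors and 0.00821, 0.00725 and 0.0103% in the adapted/B6129SF1 tumors (exact permutation test, two-sided, p = 0.5, where 0.1 is the smallest p that 3 against 3 can give). Calls were lost for Cadm4 without original/B6129SF1 replicates 1 or 3 or adapted/B6129SF1 replicate 2 (1.91 to 2.11), for Nefm without original/B6129SF1 replicate 3 or adapted/B6129SF1 replicates 2 or 3 (1.04 to 1.21), for Nefl without original/B6129SF1 replicates 1, 2 or 3 or adapted/B6129SF1 replicate 2 (1.44 to 1.62) and for S100b without original/B6129SF1 replicates 1 or 3 or adapted/B6129SF1 replicates 1 or 2 (0.93 to 1.03).

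Among contractile and matrix genes, single members changed in both directions. Myl9, the regulatory light chain of smooth muscle myosin, measured 6.88, 7.11 and 3.50 FPKM in the original/B6129SF1 tumors and 28.8, 29.9 and 38.9 FPKM in the adapted/B6129SF1 tumors (log2 fold change 2.33, SE 0.27, adjusted p = 0.00288). Acta2, the smooth muscle actin gene, measured 15.8, 8.33 and 8.99 FPKM in the original/B6129SF1 tumors and 27.9, 30.9 and 76.5 FPKM in the adapted/B6129SF1 tumors (log2 fold change 1.84, SE 0.37, adjusted p = 0.0209), highest in adapted/B6129SF1 replicate 3, the tumor with skeletal muscle RNA. Without that tumor the log2 fold change of Acta2 was 1.39 and its call was kept, and the part of the muscle RNA in its level was not tested. Olfml3, a secreted olfactomedin-domain protein picked after its values were seen, measured 33.2, 39.7 and 31.4 FPKM in the original/B6129SF1 tumors and 114, 111 and 139.9 FPKM in the adapted/B6129SF1 tumors (log2 fold change 1.78, SE 0.14, adjusted p = 0.000856). Adamts2, which trims procollagen, measured 2.01, 0.842 and 2.298 FPKM in original/B6129SF1 and 7.24, 6.46 and 10.3 FPKM in adapted/B6129SF1 (log2 fold change 1.75, SE 0.24, adjusted p = 0.0064). Mmp2, the gelatinase gene, measured 78.4, 94.8 and 74.5 FPKM in the original/B6129SF1 tumors and 16.02, 16.3 and 42.7 FPKM in the adapted/B6129SF1 tumors (log2 fold change -1.83, SE 0.38, adjusted p = 0.0225). Of 18 collagen genes tested, 0 were called in either direction, with a median of 0.21 and a range of -0.36 to 1.01. The 32 metalloproteinase and inhibitor genes held 1 higher (Adamts2) and 2 lower (Mmp2 and Mmp13), and the 45 matrix glycoprotein genes 0 higher and 1 lower (Cspg4). The call did not hold for Acta2 without original/B6129SF1 replicates 2 or 3 (1.68 and 1.73), for Mmp2 without original/B6129SF1 replicates 1, 2 or 3 or adapted/B6129SF1 replicates 1 or 2 (-1.90 to -1.60), for Mmp13 without original/B6129SF1 replicates 1 or 3 or adapted/B6129SF1 replicates 1 or 3 (-1.47 to -1.27) and for Cspg4 without original/B6129SF1 replicates 1 or 3, adapted/B6129SF1 replicates 2 or 3 or adapted/B6 replicate 3 (-1.07 to -0.84).

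Enzymes that feed glycan synthesis gave 2 of the strongest rises. Gfpt2, an isoform of the first enzyme of the hexosamine pathway, had the smallest p of all the higher genes, with 0.592, 1.19 and 1.09 FPKM in the original/B6129SF1 tumors and 10.2, 8.25 and 11.8 FPKM in the adapted/B6129SF1 tumors (log2 fold change 2.503, SE 0.19, adjusted p = 0.000856). Chst15, which adds a further sulfate to chondroitin sulfate, measured 0.777, 0.594 and 0.737 FPKM in the original/B6129SF1 tumors and 13.3, 7.72 and 9.44 FPKM in the adapted/B6129SF1 tumors (log2 fold change 2.68, SE 0.20, adjusted p = 0.000856). The other 40 of the 42 tested genes of this list were not called, and its median was -0.07, with Gfpt1, the widely expressed isoform, at 13.7, 9.43 and 10.9 FPKM in original/B6129SF1 and 13.97, 15.6 and 14.2 FPKM in adapted/B6129SF1 (adjusted p = 0.124). Pdk4, a kinase that shuts off pyruvate dehydrogenase, measured 13.7, 24.6 and 9.08 FPKM in the original/B6129SF1 tumors and 102, 57.9 and 59.4 FPKM in the adapted/B6129SF1 tumors (log2 fold change 2.20, SE 0.55, adjusted p = 0.0426). The transporter gene Slc43a3 was higher (2.03), and the transporter gene Slc16a11 was lower (-1.87). The call was lost for Pdk4 without original/B6129SF1 replicates 1 or 3, adapted/B6129SF1 replicates 1, 2 or 3 or adapted/B6 replicate 2 (1.88 to 2.34).

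Core metabolic and growth lists held few or no called genes. Over all genes tested 2.39% were higher and 0.887% lower. At these shares lists of this size would hold few calls, so the counts do not set these lists apart. None of the 10 genes with the highest mean FPKM (Tpt1, Eef1a1, S100a4, Lgals1, Vim, Fth1, Rps26, Rpl41, Rpl35 and Rps27) was called. In oxidative phosphorylation 0 of 57 genes were called, with a range of -0.14 to 0.41. In sterol and fatty acid synthesis 0 of 37 were called, with a range of -0.69 to 0.90, and among cytosolic ribosomal proteins 0 of 71, with a range of -0.72 to 0.28. In glycolysis and the hypoxia response 2 of 38 were higher (Eno2 and Pfkfb4). Cell cycle genes gave 0 called of 31 for G1 to S and 1 lower of 36 for G2 and M (Anln), with medians of -0.35 and -0.33. Of these genes 2 of 31 and 2 of 36 had a log2 fold change above 0. The shares of all FPKM of both lists overlapped between the groups and were lowest in adapted/B6129SF1 replicate 1 (0.105 and 0.146%). Mki67 measured 76.2, 41.5 and 41.3 FPKM in original/B6129SF1 and 29.6, 74.5 and 57.1 FPKM in adapted/B6129SF1 (adjusted p = 0.982). The study reported a higher Ki-67-positive fraction by protein staining in adapted/B6129SF1 tumors. With one tumor fewer, the call was lost for Anln without original/B6129SF1 replicates 1, 2 or 3 or adapted/B6129SF1 replicate 1 (-1.32 to -0.89), for Eno2 without original/B6129SF1 replicates 1, 2 or 3, adapted/B6129SF1 replicates 1, 2 or 3 or adapted/B6 replicate 3 (0.78 to 1.152) and for Pfkfb4 without original/B6129SF1 replicates 1 or 3 or adapted/B6129SF1 replicates 1 or 3 (0.89 to 1.03).

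**Figure D4:**
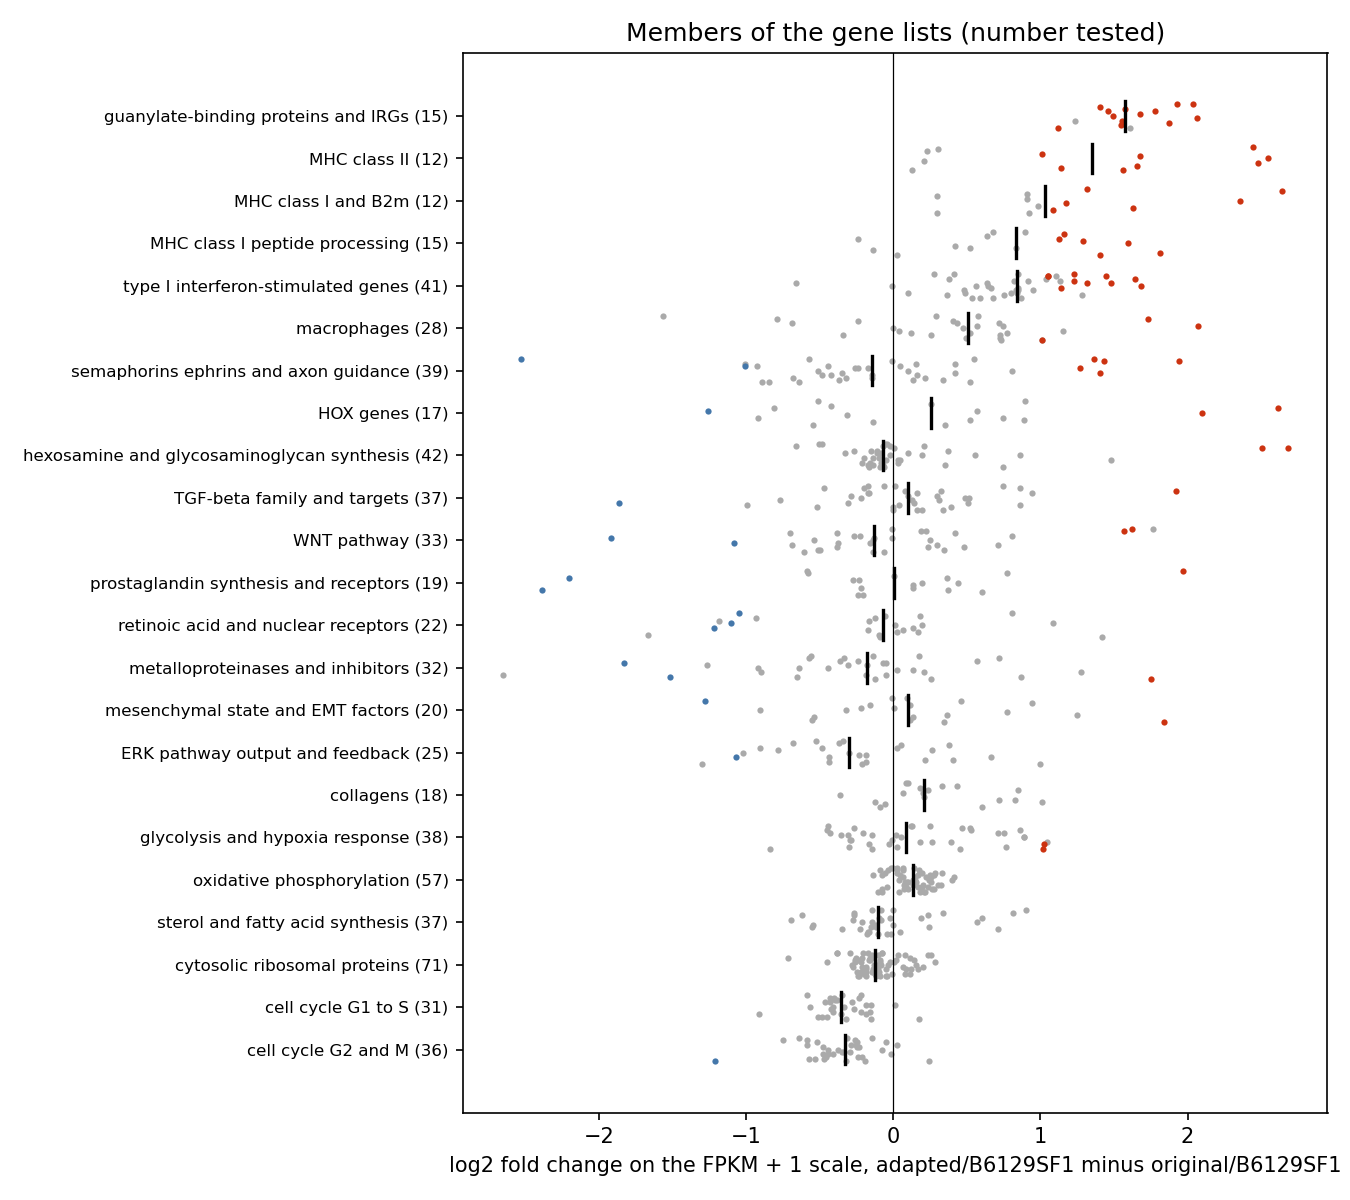
Each point is a tested member of the gene list at the left (the number tested is in parentheses), placed by its log2 fold change, adapted/B6129SF1 minus original/B6129SF1 on FPKM + 1, and black bars mark list medians. Red and blue points are called genes, gray points are not called. The guanylate-binding protein list lies wholly to the right with a median of 1.58, while lists such as oxidative phosphorylation hold only gray points close to 0.

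Guanylate-binding proteins and genes of antigen presentation, which interferon-gamma induces, held the highest shares of higher genes among the immune lists. The list of type I interferon-stimulated genes also had 10 of 41 tested higher and 0 lower, with a median of 0.84. Without original/B6129SF1 replicate 3, 4 of these 10 were still called. Which interferon lay behind the rises was not tested. Of the 15 tested guanylate-binding proteins and immunity-related GTPases, which attack intracellular pathogens, 13 were higher and 0 lower (median 1.58, against -0.0353 over all genes tested). MHC class II molecules present peptides to CD4 T cells, and the list named for them had 8 of 12 higher. These were H2-Aa, H2-Ab1, H2-Eb1, H2-DMa, H2-DMb1, Ciita, Ctss and Ifi30. Of these Ciita, Ctss and Ifi30 are not MHC genes, and Ctss is also on the macrophage list. MHC class I genes had 6 of 12 higher and class I peptide processing genes 6 of 15, with 0 lower on each of these lists. Without original/B6129SF1 replicate 3, 6 of the 13 GTPases, 3 of the 8 class II, 1 of the 6 class I and 0 of the 6 processing genes were still called. Without adapted/B6129SF1 replicate 2 the numbers still called were 8, 4, 3 and 2 in the same order. Of the 8 called genes of the class II list, 5 were still called without original/B6129SF1 replicate 1, original/B6129SF1 replicate 2 or adapted/B6129SF1 replicate 3. Of the 6 processing genes, 3 were still called without original/B6129SF1 replicate 2 or adapted/B6129SF1 replicate 3. The class II gene H2-Ab1 measured 95.4, 68.6 and 112 FPKM in the original/B6129SF1 tumors and 248, 738 and 662 FPKM in the adapted/B6129SF1 tumors (log2 fold change 2.44, SE 0.43, adjusted p = 0.0127). Cxcl9, a chemokine that attracts T cells, measured 15.01, 10.7 and 10.1 FPKM in the original/B6129SF1 tumors and 38.6, 111 and 124 FPKM in the adapted/B6129SF1 tumors (log2 fold change 2.69, SE 0.41, adjusted p = 0.00824). For H2-Ab1 and Cxcl9 adapted/B6129SF1 replicate 1 lay between original/B6129SF1 and the other adapted/B6129SF1 tumors. Serpina3g, a protease inhibitor gene of the same response, measured 4.93, 3.83 and 3.08 FPKM in original/B6129SF1 and 19.3, 41.1 and 33.4 FPKM in adapted/B6129SF1 (log2 fold change 2.66, SE 0.26, adjusted p = 0.00197). H2-Q6 and H2-Q7 were also called (2.64 and 2.36), but these class I genes are near-identical copies whose reads cannot be told apart with certainty. With a tumor left out, calls ended for H2-Q6 without original/B6129SF1 replicate 3 (2.59) and for H2-Q7 without original/B6129SF1 replicate 3 or adapted/B6129SF1 replicate 2 (2.31 and 2.11). Markers of leukocytes moved with these genes in part, the share of all FPKM of the general leukocyte list being 0.145, 0.134 and 0.166% in the original/B6129SF1 tumors and 0.216, 0.257 and 0.237% in the adapted/B6129SF1 tumors, and that of the macrophage list 1.04, 1.24 and 1.33% in the original/B6129SF1 tumors and 1.72, 1.29 and 1.68% in the adapted/B6129SF1 tumors. Their part in the rise was not tested.

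Macrophage, monocyte, T cell and endothelial lists held smaller shares of called genes than the guanylate-binding protein and antigen presentation lists. Macrophage genes had 3 higher of 28 tested (Ctss, Fcgr4 and Gpnmb), monocyte genes 3 of 12 (Ace, Ccr2 and Spn), T cell genes 1 of 8 (Cd3g) and endothelial genes 1 of 27 (Vegfc), with 0 lower in each, where 2.39% of all genes tested were higher. Most members of these lists nevertheless had a log2 fold change above 0. These were 22 of 28 macrophage (median 0.51), 10 of 12 monocyte (1.03), 8 of 8 T cell (1.02) and 23 of 27 endothelial genes (0.31). Of the neutrophil genes 4 of 10 were above 0 (median -0.10). Cd8a, the marker of cytotoxic T cells, measured 1.01, 0.532 and 0.416 FPKM in original/B6129SF1 and 0.541, 4.78 and 3.55 FPKM in adapted/B6129SF1 (adjusted p = 0.159), and one adapted/B6129SF1 tumor overlapped with original/B6129SF1. Clec1a, a C-type lectin receptor gene, had the largest rise of all called genes, with 1.96, 0.939 and 0.950 FPKM in the original/B6129SF1 tumors and 18.4, 14.7 and 11.9 FPKM in the adapted/B6129SF1 tumors (log2 fold change 2.82, SE 0.24, adjusted p = 0.00135). It was highest in adapted/B6129SF1 replicate 1, where Clec12a, given next, was lowest among the adapted/B6129SF1 tumors. Which cells expressed Clec1a was not tested. Clec12a, a lectin gene of myeloid cells, measured 12.7, 9.71 and 7.72 FPKM in original/B6129SF1 and 30.6, 69.7 and 45.4 FPKM in adapted/B6129SF1 (log2 fold change 2.11, SE 0.33, adjusted p = 0.00886). In the complement list Cfb, encoding factor B, was higher, with 5.76, 3.40 and 4.12 FPKM in original/B6129SF1 and 16.4, 21.1 and 48.7 FPKM in adapted/B6129SF1 (log2 fold change 2.32, SE 0.39, adjusted p = 0.0111). C3, the central component, measured 5.27, 4.67 and 7.71 FPKM in original/B6129SF1 and 15.9, 19.9 and 79.9 FPKM in adapted/B6129SF1 (log2 fold change 2.18, SE 0.55, adjusted p = 0.0433), highest in the muscle-containing tumor. Fcrls and Ppbp were lower, Fcrls, a scavenger receptor gene, with 27.5, 12.5 and 38.0 FPKM in original/B6129SF1 and 3.27, 3.20 and 3.93 FPKM in adapted/B6129SF1 (log2 fold change -2.47, SE 0.45, adjusted p = 0.0157), and Ppbp, a platelet chemokine gene, with 23.8, 14.2 and 27.9 FPKM in original/B6129SF1 and 7.69, 1.94 and 1.71 FPKM in adapted/B6129SF1 (log2 fold change -2.43, SE 0.51, adjusted p = 0.024). The call was not kept for Fcrls without original/B6129SF1 replicates 1 or 3 (-2.36 and -2.14), for Ppbp without original/B6129SF1 replicates 1 or 3 or adapted/B6129SF1 replicates 2 or 3 (-2.35 to -2.13) and for C3 without original/B6129SF1 replicates 1, 2 or 3, adapted/B6129SF1 replicate 2 or adapted/B6 replicates 1 or 3 (2.05 to 2.45), and C3 was at 1.48 without adapted/B6129SF1 replicate 3. Among the markers counted above, calls were lost for Cd3g without original/B6129SF1 replicates 1, 2 or 3, adapted/B6129SF1 replicates 2 or 3 or adapted/B6 replicates 1 or 3 (1.16 to 1.54), for Ctss without original/B6129SF1 replicates 1, 2 or 3, adapted/B6129SF1 replicates 1, 2 or 3 or adapted/B6 replicates 1 or 3 (0.87 to 1.11), for Gpnmb without original/B6129SF1 replicates 1, 2 or 3, adapted/B6129SF1 replicates 1, 2 or 3 or adapted/B6 replicate 3 (1.52 to 1.98), for Fcgr4 without original/B6129SF1 replicate 1 or adapted/B6129SF1 replicate 3 (2.11 and 1.86) and for Ccr2 without original/B6129SF1 replicates 1, 2 or 3, adapted/B6129SF1 replicates 2 or 3 or adapted/B6 replicate 3 (0.88 to 1.10).

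The adapted/B6129SF1 tumors were uneven in opposite ways for the higher MHC and interferon-gamma genes and the higher patterning genes. Adapted/B6129SF1 replicate 1 was the lowest adapted/B6129SF1 tumor in 33 of the 36 higher genes of the MHC and interferon-gamma lists and the highest in 1. Over all 68 higher genes of the immune lists it was the lowest in 49 and the highest in 12. Among the 15 higher transcription factors, picked after their values were seen, it was the highest tumor in 11 and the lowest in 3. Over the 172 higher genes on no immune list, the lowest tumor was replicate 1 in 63, replicate 2 in 55 and replicate 3 in 54. For the same genes the highest tumor was replicate 1 in 68, replicate 2 in 39 and replicate 3 in 65. The muscle RNA lay in replicate 3.

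**Figure D5:**
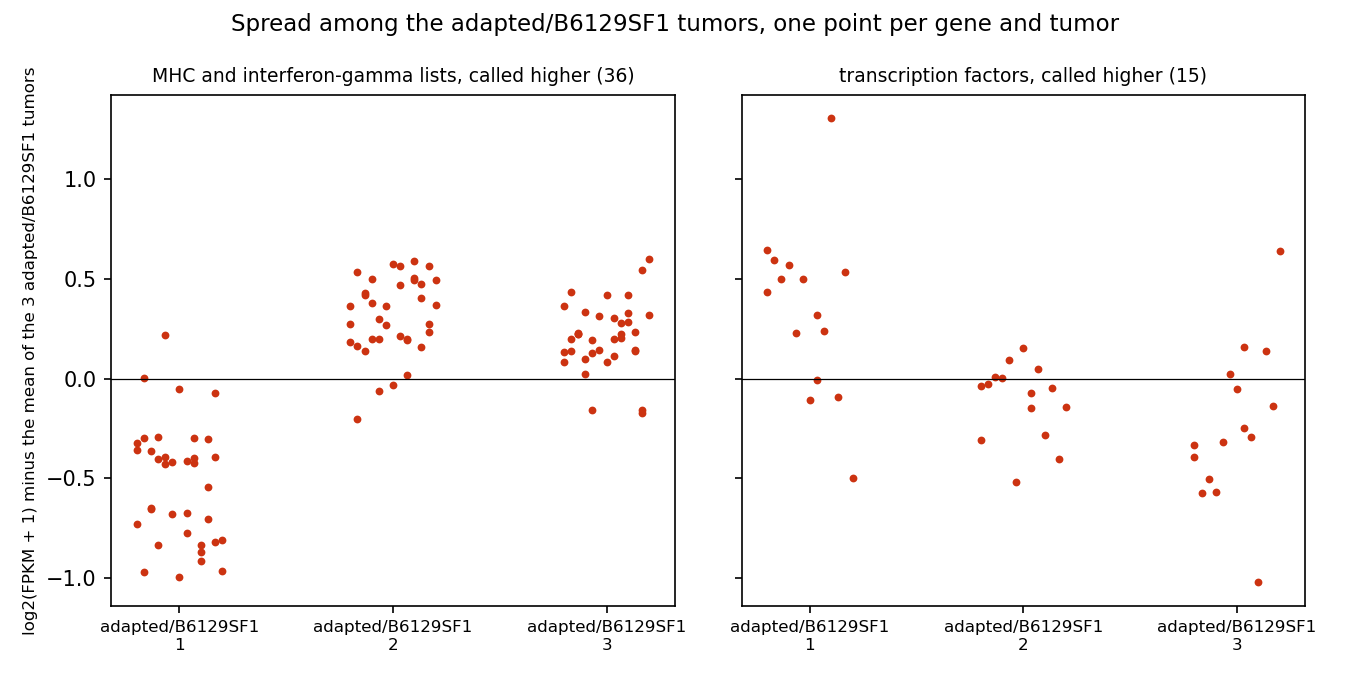
Points give log2(FPKM + 1) of a called gene in each adapted/B6129SF1 tumor minus its mean over the 3, for 36 genes of the MHC and interferon-gamma lists (left) and 15 transcription factors (right). On the left most points of replicate 1 lie below 0, and on the right most lie above it.

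Few genes were called between adapted cells in the 2 host strains. Between adapted/B6 and adapted/B6129SF1, 3 of the 10035 genes tested were called (0.0299%), and 1 of the 329 genes above was among them. That gene, Gdpd3, a phosphodiesterase gene, measured 2.62, 3.37 and 3.47 FPKM in original/B6129SF1 and 8.39, 7.86 and 13.4 FPKM in adapted/B6129SF1 and 0.861, 1.63 and 0.821 FPKM in adapted/B6, so that it was higher in adapted/B6129SF1 than in original/B6129SF1 (1.36, adjusted p = 0.0101) and lower in adapted/B6 than in adapted/B6129SF1 (-2.36, adjusted p = 0.0117). It was named after its values were seen. For every gene given here the 2 differences share the 3 adapted/B6129SF1 tumors, so they are not independent. Hoxa10 was 10.3, 19.2 and 13.2 FPKM in adapted/B6, with a difference from adapted/B6129SF1 of -0.06 (95% confidence interval -0.63 to 0.50). Akr1c18 was 4.57, 4.09 and 3.08 FPKM (0.37, 95% confidence interval -0.72 to 1.46). The class II gene H2-Aa was 284, 716 and 839 FPKM in adapted/B6129SF1 and 243, 103 and 201 FPKM in adapted/B6, a difference of -1.69 that was not past the threshold (95% confidence interval -2.65 to -0.72, adjusted p = 0.501). Il1rl1 was 13.96, 17.4 and 31.4 FPKM in adapted/B6, above every adapted/B6129SF1 tumor (1.73, adjusted p = 0.593). The adapted/B6 call on Gdpd3 was lost without adapted/B6 replicate 1 and without adapted/B6 replicate 3.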

How the data were processed

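RNA of 9 tumors (3 each of original/B6129SF1, adapted/B6129SF1 and adapted/B6) had been sequenced, and the authors deposited 1 table of FPKM per gene for all tumors. Per the labels' processing notes, FastQC, HISAT2, Cuffnorm and Cuffdiff were used with the mm10 build. FPKM carry no read totals, and whole reads could not be recovered from the steps between low values, so the depth is unknown and no counting intervals are given.

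Values were taken as log2(FPKM + 1), on which a fold change understates the change of genes of low level. A gene was kept if 3 or more of the 6 tumors compared had 1 FPKM or above, which left 10035 of 17369. A model with 3 groups was fitted to all 9 tumors with limma 3.58.1 in R 4.3.3 (moderated variance with a mean trend), so adapted/B6 tumors add to the estimate of spread. Calls needed an adjusted p below 0.05 together with a log2 fold change beyond 1 in size. Shares of all FPKM held by a list were compared with a two-sided exact permutation test. The fit was tested on simulated data.

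Genes named are the 15 largest rises and 15 largest falls with non-overlapping groups and a mean of at least 5 FPKM, the smallest p in each direction, the 10 largest rises and falls on no list with at least 2 FPKM in the higher group, members of described lists, the 10 most abundant genes and genes the study names, and others are said to be chosen after their values were seen. Members and lists were chosen with earlier results of these data known. Alternatives changed the filter, pseudocount, scaling, model, threshold or tumors. A mouse reference was not used here, so no sequences or coordinates are given, and genes without a row were not analysed here. Some called genes are not reported here.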

Additional observations from a re-analysis of the deposited data

How the results depend on the processing

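The calls were repeated in 9 fits that left out a tumor and in 14 other settings of filter, pseudocount, scaling, model or tumors. In all 23 of these, 44 higher and 19 lower genes were called, where a gene removed by a stricter filter counts as not called. No called gene changed direction in any of the 23. Leaving out a tumor could not have reversed one, because the groups did not overlap in any called gene. Higher and lower counts, 240 and 89 as reported, were 89 and 35 with a pseudocount of 5, 455 and 414 with the adjusted p alone, and 4 and 1 when limma tested for changes beyond 1 on the log2 scale. The other settings kept both counts within 1.5 times of those reported. Leaving out a tumor gave 123 to 262 higher and 53 to 99 lower genes, fewest without original/B6129SF1 replicate 3, and the cause was not tested. Without the 2 tumors with muscle RNA, a setting chosen after seeing the data, the counts were 193 and 81. Of the 329 called genes, 1 was called between adapted/B6 and adapted/B6129SF1, 0 without a filter on low values, 0 with the replicate block and 0 to 2 with a tumor left out. With the replicate number as a block 184 genes were higher and 72 lower, and the tumors share only a number, since same-numbered tumors correlated at -0.33, 0.00987 and 0.00037 in their deviations from the group means. Original and adapted cells each stand for 1 population, so adaptation itself was not repeated. With 3 tumors a group, exact tests cannot go below 0.1. Bulk FPKM do not separate carcinoma from host cells.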

Other observations

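The nuclear body genes Sp100, Sp110 and Sp140, which form an interferon-inducible family, were all higher. Sp100 measured 8.24, 5.76 and 5.24 FPKM in the original/B6129SF1 tumors and 21.8, 21.3 and 19.9 FPKM in the adapted/B6129SF1 tumors (log2 fold change 1.59, SE 0.16, adjusted p = 0.00218), Sp110 rose by 1.39 and Sp140 by 1.61 on the log2 scale, and all 3 kept their calls with any one tumor left out. Casp1, which encodes an inflammatory caspase, measured 5.70, 6.30 and 5.32 FPKM in original/B6129SF1 and 13.6, 17.7 and 22.2 FPKM in adapted/B6129SF1 (log2 fold change 1.45, SE 0.18, adjusted p = 0.00448), and Pycard, which encodes its adaptor, 5.61, 7.23 and 5.24 FPKM in original/B6129SF1 and 12.2, 12.3 and 14.999 FPKM in adapted/B6129SF1 (log2 fold change 1.02, SE 0.22, adjusted p = 0.0251). The call was lost for Pycard without original/B6129SF1 replicates 1 or 3 or adapted/B6129SF1 replicates 2 or 3 (0.93 to 1.06). These genes were picked after their values were seen.

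Phlda3, a p53 target gene, was higher with 13.8, 24.3 and 18.6 FPKM in original/B6129SF1 and 63.3, 30.6 and 59.2 FPKM in adapted/B6129SF1 (log2 fold change 1.35, SE 0.29, adjusted p = 0.0258), and Pmaip1, another p53 target that encodes the cell death protein NOXA, was lower with 6.74, 5.78 and 14.3 FPKM in original/B6129SF1 and 1.18, 1.64 and 3.47 FPKM in adapted/B6129SF1 (log2 fold change -1.66, SE 0.36, adjusted p = 0.0273). Of the 22 p53 targets tested these were the 2 called, and the call was lost for Phlda3 without original/B6129SF1 replicates 1 or 3 or adapted/B6129SF1 replicates 1 or 3 (1.154 to 1.36) and for Pmaip1 without original/B6129SF1 replicates 1 or 3 or adapted/B6129SF1 replicates 1 or 2 (-1.79 to -1.29). The cochaperone gene Bag2, also picked after its values were seen, was lower with 44.8, 40.6 and 42.8 FPKM in original/B6129SF1 and 16.7, 19.8 and 18.1 FPKM in adapted/B6129SF1 (log2 fold change -1.19, SE 0.13, adjusted p = 0.00222), and the heat shock gene Hspa1b with 13.6, 15.4 and 13.97 FPKM in original/B6129SF1 and 6.18, 3.73 and 4.05 FPKM in adapted/B6129SF1 (log2 fold change -1.46, SE 0.31, adjusted p = 0.024). The call was lost for Hspa1b without original/B6129SF1 replicates 1, 2 or 3 or adapted/B6129SF1 replicates 2 or 3 (-1.497 to -1.35). The Trp53 transcript itself measured 9.69, 7.82 and 9.09 FPKM in original/B6129SF1 and 11.4, 14.5 and 15.6 FPKM in adapted/B6129SF1 (adjusted p = 0.111).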
